A study of Antheraea pernyi with 6 samples.

Results

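Chemosensory proteins are small soluble proteins that insects secrete, and in the antenna some of them fill the lymph around the dendrites of sensory neurons, where they are thought to carry odorants and other hydrophobic molecules. They have a fold of their own, with paired cysteine bridges, and are a family distinct from the odorant-binding proteins. Members of the family are also made in many tissues other than sense organs. Here 4 of the 16458 genes of the table were followed, picked by their identifiers because earlier results of these data had shown them to be abundant or to differ between the sex labels. They are GWHGABGR001098, GWHGABGR001105, GWHGABGR001111 and GWHGABGR012364. The values that chose them were the levels and the contrast between labels given below, so for these genes both are a description and no test is attached to them.

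The study sequenced mRNA of the antennae of adult moths of the species Antheraea pernyi (the Chinese oak silkmoth) in 3 libraries labelled female and 3 labelled male, called the female set and the male set below after those labels. The labels give no treatment, strain, age in days or mating state, and do not say whether libraries of a label came from separate moths. The spread behind the p-values below is that between libraries, and part of it or all of it may be technical. The table gives FPKM, the fragments per kilobase of gene scaled by the library's total. Totals, worked out from the size of 1 read in each FPKM value, lay between 9392242 and 11180175 reads.

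The tissue carried genes that mark olfactory sensilla, at unlike levels. Of those with a sensory neuron membrane protein 2 hit, GWHGABGR005182 averaged 3042 FPKM in the female set and 2427 in the male set. GWHGABGR000255 lay near the floor, at 0.654 and 0.647 FPKM, and was not called. Orco, the coreceptor of odorant receptors (GWHGABGR013501), averaged 464.9 ± 5.89 FPKM in the female set and 175.8 ± 1.58 FPKM in the male set (SD, n = 3). Of the 8 sensillum genes listed, all tested, 4 were called toward the label female and 3 toward the label male (limma, adjusted p of 0.05). Of all genes tested, 9.03% and 27.8% were called in those directions. After libraries were rescaled by the median of ratios, 4 and 2 were called, beside 17.6% and 14.3% of all genes. Pheromone-binding proteins are best known from the antennae of male moths. Pheromone-binding protein 1 (GWHGABGR012196) averaged 92516 FPKM in the female set and 1273 in the male set, and pheromone binding protein 3 (GWHGABGR012195) 11729 and 1082. Another gene with such a hit, GWHGABGR012197, averaged 361 and 473 FPKM. It was called toward the label male on the deposited scale (limma adjusted p = 0.000548) and not called after rescaling (limma adjusted p = 0.0688). The general odorant-binding proteins, carriers of other odorants, averaged 5239 and 10391 FPKM (GWHGABGR012186) and 11568 and 17546 FPKM (GWHGABGR012194). Exchanged labels and a true difference between the sexes cannot be told apart here, so every direction below is one between labels, and it bears on all 6 libraries alike. Fewer cells of a type and less RNA per cell also cannot be told apart in whole antennae.

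The 4 genes carry different names in the deposited annotation. The best protein hit of GWHGABGR001098 is an uncharacterized protein of the wild silkmoth Bombyx mandarina, and its symbol CG11390 is that of ejaculatory bulb protein III of Drosophila melanogaster, a member of the chemosensory protein family made in the male reproductive tract of the fly. GWHGABGR001105 has as its best hit sensory protein 2 of Lonomia obliqua, another saturniid moth, and carries no symbol. GWHGABGR001111 has chemosensory protein 8 of Antheraea yamamai, a silkmoth of the same genus, and GWHGABGR012364 a chemosensory protein of the moth Eogystia hippophaecolus, and both share the symbol CG11390. The genes with that symbol carry the same terms for an extracellular protein, metamorphosis, post-mating behaviour and response to virus, which come from the annotation and were not measured in these moths. The recovered gene lengths were 429 bases for GWHGABGR001098, 333 for GWHGABGR001105 and 378 for GWHGABGR012364, all multiples of 3.

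GWHGABGR001098 was the most abundant chemosensory protein gene and one of the most abundant genes of the antenna. It stood at 40784, 41221 and 40523 FPKM in replicates 1, 2 and 3 labelled female, and at 68008, 67584 and 66600 FPKM in those labelled male. All 3 male-labelled libraries lay above all 3 female-labelled ones, and libraries of a label differed by little. The means were 40843 ± 353 FPKM (SD, n = 3) and 67397 ± 722 FPKM, a ratio of 1.65 toward the label male, and the log2 difference of log2(FPKM + 1) was 0.72 (SE 0.02). Of all genes, it ranked 3 in every female-labelled library, and in the male set it ranked 2, 1 and 2. It alone held 3.03 ± 0.0217% of total FPKM in the female set and 5.04 ± 0.078% in the male set.

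GWHGABGR001105 followed the same direction with a wider gap. It stood at 25079, 24322 and 23405 FPKM in the female set and at 48853, 48707 and 48997 FPKM in the male set. The sets again did not overlap, and the lowest male-labelled value was far above the highest female-labelled one. The means were 24268 ± 838 FPKM (SD, n = 3) and 48852 ± 145 FPKM, a ratio of 2.01, with a log2 difference of 1.01 (SE 0.02). In rank among all genes it was at 5 in each female-labelled library and at 3, 4 and 3 in the male set. Its share of total FPKM was 1.80 ± 0.0526% and 3.65 ± 0.0161%.

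GWHGABGR001111 was rare in comparison. It stood at 9.36, 10.2 and 11.5 FPKM in the female set and at 34.1, 36.8 and 27.6 FPKM in the male set, of which replicate 3 was the lowest. The sets did not overlap. The means were 10.4 ± 1.09 FPKM (SD, n = 3) and 32.8 ± 4.72 FPKM, a ratio of 3.17, with a log2 difference of 1.57 (SE 0.13). These values rested on 63 recovered reads over the female set and 172 over the male set, and the ratio corrected for library totals had an exact 95% interval of 2.36 to 4.30, which covers counting error only. The length found for it, 184 bases, cannot be divided by 3, so reads and length may both be too low by a common factor. The FPKM values would not change with it, and the interval would be narrower.

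GWHGABGR012364 went the other way. It stood at 207, 201 and 186 FPKM in the female set and at 58.0, 46.0 and 59.3 FPKM in the male set, of which replicate 2 was the lowest. All female-labelled values lay above all male-labelled ones. The means were 198 ± 10.8 FPKM (SD, n = 3) and 54.5 ± 7.36 FPKM, a ratio of 3.64 toward the label female, with a log2 difference of -1.85 (SE 0.10). Its reads came to 2476 and 585.

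**Figure D1:**
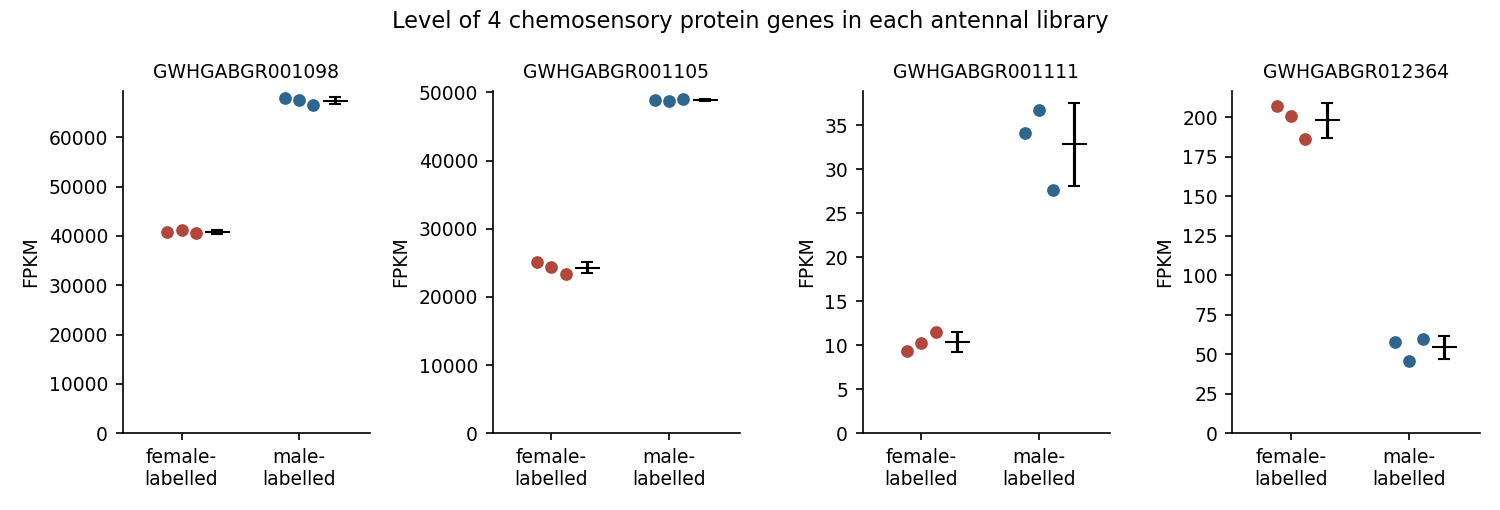
Level in FPKM (vertical axes, each starting at 0) of the 4 chemosensory protein genes in the 3 female-labelled (red) and 3 male-labelled (blue) libraries. Points are libraries, and black marks give the mean and SD. The sets do not overlap for any of the 4 genes, which are higher in the male set except for GWHGABGR012364, at 198 against 54.5 FPKM.

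That all 4 genes had sets that do not overlap is a product of how they were chosen, and 50.1% of the 11590 genes tested also had sets that do not overlap (37.9% with the male set above and 12.1% with the female set above). In every library the order by FPKM was GWHGABGR001098, GWHGABGR001105, GWHGABGR012364 and GWHGABGR001111, and no 2 neighbours in that order had overlapping values within a label. The distance between the last pair changed most, with GWHGABGR012364 at 19.3 ± 3.00 times GWHGABGR001111 in the female set and 1.70 ± 0.45 times in the male set (SD, n = 3). The ratio of GWHGABGR001098 to GWHGABGR001105, which does not depend on how libraries are scaled, was 1.63, 1.69 and 1.73 in the female set and 1.39, 1.39 and 1.36 in the male set.

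Genes differed between labels by a median log2 difference of 0.23 on the deposited scale, so the values of the 4 genes are to be read against that shift. After libraries were rescaled by the median of ratios, the median of all genes tested was 0.02. The log2 differences were then 0.46 for GWHGABGR001098, 0.75 for GWHGABGR001105, 1.32 for GWHGABGR001111 and -2.11 for GWHGABGR012364. No direction of the 4 changed.

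Spread between libraries of a label was a measure that the choice did not use. On the log2(FPKM + 1) scale GWHGABGR012364 had an SD of 0.08 in the female set and 0.20 in the male set. Over tested genes within 2-fold of its mean in the same label, a choice made after seeing the data, the median SD was 0.06 (761 genes) and 0.09 (2022 genes). For GWHGABGR001111 the SD was 0.14 and 0.21, beside medians of 0.17 (3008 genes) and 0.11 (2491 genes). At the top of the range few genes serve as a comparison, with 3 near GWHGABGR001098 in each label and 9 and 4 near GWHGABGR001105. The SD of GWHGABGR001098 was 0.01 in the female-labelled and 0.02 in the male set. That of GWHGABGR001105 was 0.05 and 0.004.

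The wider family held 17 genes by name or symbol, all of them with a mean of at least 0.5 FPKM and therefore tested. In the female set the 17 genes together held between 7.16% and 7.32% of total FPKM, and in the male set between 11.0% and 11.1%. The 4 genes made up 66.8 ± 0.121% of the family's FPKM in the female set and 78.5 ± 0.506% in the male set (SD, n = 3), nearly all of it from GWHGABGR001098 and GWHGABGR001105. The other 13 genes held 2.37% to 2.44% of total FPKM in the female set and 2.35% to 2.43% in the male set. These ranges overlap, although 11 of the 13 passed the test one by one, 7 toward the label male and 4 toward the label female. Of all genes tested, 27.8% and 9.03% were called in those directions. Opposite moves offset each other in the sum, such as those of GWHGABGR001099 (18848 against 24470 FPKM, female set first) and GWHGABGR001145 (7924 against 2553 FPKM). A share also depends on which genes are counted. Without the 10 most abundant genes of the table, 3 of them in the family, the family's mean share was 1.33% in the female set and 0.722% in the male set. Those 3 genes, GWHGABGR001098, GWHGABGR001105 and GWHGABGR001099, were all higher in the male set. The most abundant family genes left, GWHGABGR001145 (7924 against 2553 FPKM) and GWHGABGR001144 (4750 against 2478 FPKM), were higher in the female set. Odorant-binding proteins, with pheromone-binding protein 1 among them, held 9.73 ± 0.139% of total FPKM in the female set and 3.26 ± 0.0866% in the male set.

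**Figure D2:**
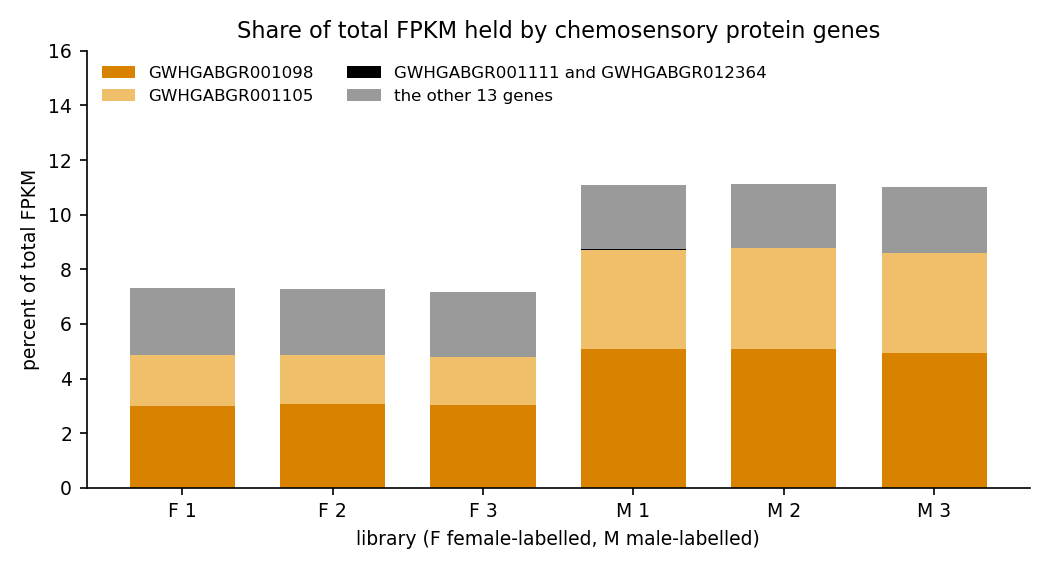
Percent of each library's total FPKM (vertical axis) held by GWHGABGR001098 (dark orange), GWHGABGR001105 (light orange), GWHGABGR001111 with GWHGABGR012364 (black, too thin to see in most bars) and the other 13 chemosensory protein genes (grey). Bars are single libraries. The orange parts are taller in the male set, while the grey part lies between 2.35% and 2.44% in all 6.

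Of the other 13 chemosensory protein genes, 7 were called toward the label male and 4 toward the label female by limma at an adjusted p of 0.05, while 27.8% and 9.03% of all 11590 genes tested were called in those directions. In all, 36.9% of genes tested were called, 3227 toward the label male and 1047 toward the label female, a split that became 1655 and 2036 (31.8% in all) with libraries rescaled. The share called also depended on level. It was 67.2% among genes with a mean of at least 100 FPKM, where 6 of 6 of the other family genes were called. Below that level it was 33.3%, and 5 of 7 were called. These counts depend on the list. Widened by the symbol CG6642 and allergen Tha p 1-like genes, it also takes GWHGABGR001141 (mean 164 FPKM), which was called. It then takes GWHGABGR001100 (341 FPKM, limma adjusted p = 0.256) and GWHGABGR001104 (8.35 FPKM), which were not. After the rescaling 6 and 4 of the 13 were called, beside 14.3% and 17.6% of all genes. The median log2 difference of the 13 was 0.38 (0.22 after rescaling). The family list was written with earlier results of these data known, so these counts are not independent evidence.

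**Figure D3:**
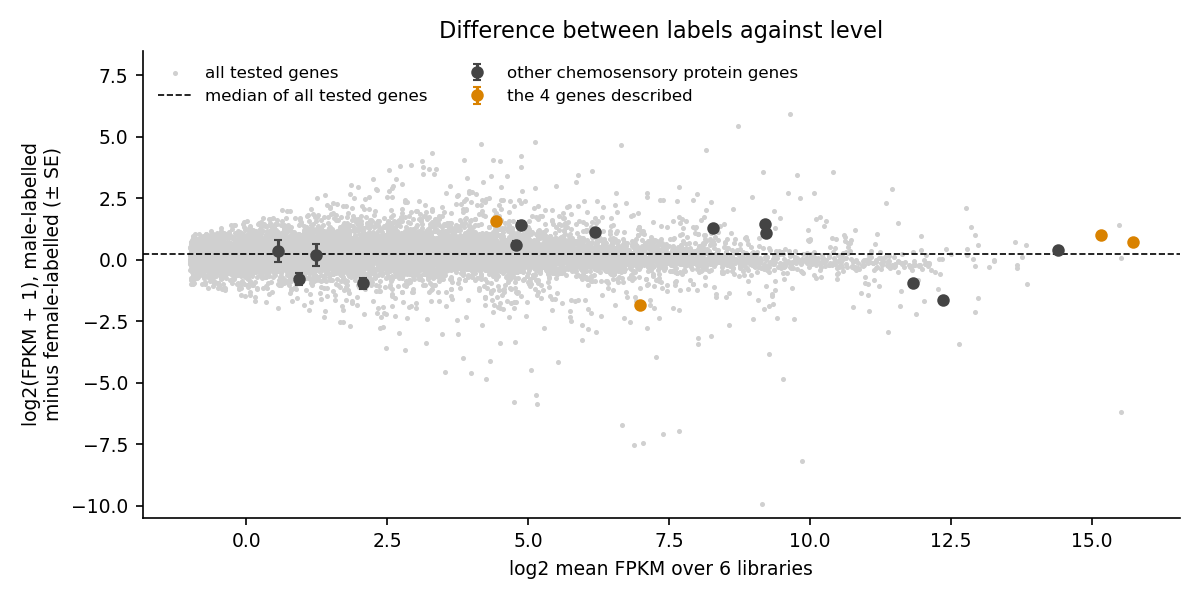
Log2 difference between labels (vertical axis, male-labelled minus female-labelled on log2(FPKM + 1), bars are SE) against log2 mean FPKM (horizontal axis) for all genes tested (light grey), the other 13 chemosensory protein genes (dark grey) and the 4 genes described (orange). The dashed line is the median of all genes tested at 0.23. The family lies on both sides of the line, from -1.85 to 1.57.

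Among the abundant relatives, GWHGABGR001099 shares its best hit and its symbol with GWHGABGR001098. It was the third of the family in level, at 18848 ± 521 FPKM (SD, n = 3) in the female set and 24470 ± 533 in the male set (log2 difference 0.38, SE 0.03, limma adjusted p = 7.60e-06). After median-of-ratios rescaling its difference was 0.12 (limma adjusted p = 0.00424). With recovered lengths of 387 and 429 bases the gene models differ, but reads could have been split between the pair if their sequences are alike, which was not tested. The ratio of GWHGABGR001098 to GWHGABGR001099 within a library was 2.17 ± 0.0465 in the female set and 2.76 ± 0.0863 in the male set. GWHGABGR001105 stood to GWHGABGR001099 at 1.29 ± 0.0224 and 2.00 ± 0.0376.

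The closest levels below these belonged to a pair that moved toward the label female. GWHGABGR001145 stood at 7924 ± 47.3 against 2553 ± 70.0 FPKM (SD, n = 3, log2 difference -1.63, limma adjusted p = 8.16e-10), the female-labelled mean first. GWHGABGR001144 stood at 4750 ± 266 against 2478 ± 173 FPKM (log2 difference -0.94, limma adjusted p = 3.21e-06). Both carry the symbol CG11390 and the same best hit of the butterfly Vanessa tameamea, as does the rare GWHGABGR001143 (2.70 ± 0.845 against 1.14 ± 0.499 FPKM, log2 difference -0.79, limma adjusted p = 0.0392). The call of GWHGABGR001143 was lost without female-labelled replicate 1 (limma adjusted p = 0.0774), female-labelled replicate 2 (0.127), male-labelled replicate 1 (0.109) or male-labelled replicate 2 (0.107), with no filter on low values (0.0732) and with the replicate number as a block (0.0729). Of the 9 genes with the symbol CG11390, GWHGABGR012364 and these 3 were called toward the label female. Another 4 were called toward the label male, GWHGABGR001098 and GWHGABGR001111 among them. GWHGABGR001098, GWHGABGR001111 and GWHGABGR012364 were picked with this contrast known, so their calls are no evidence about the genes of that symbol. Over all genes tested the shares called were 9.03% and 27.8% in those directions, and 17.6% and 14.3% after rescaling, where 4 and 4 of the 9 were called.

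At the middle levels, 3 genes were called toward the label male. GWHGABGR001101, with ejaculatory bulb-specific protein 3 as its best hit, stood at 316 ± 9.35 against 866 ± 13.9 FPKM (SD, n = 3, log2 difference 1.45, limma adjusted p = 1.12e-08). GWHGABGR001109, named for chemosensory protein 7, stood at 377 ± 9.45 against 811 ± 4.70 FPKM, with a log2 difference of 1.10. GWHGABGR001110, whose best hit is a chemosensory protein of Antheraea yamamai, stood at 180.7 ± 3.16 against 439.9 ± 33.4 FPKM, with a log2 difference of 1.28. After rescaling the differences were 1.19 for GWHGABGR001101, 0.85 for GWHGABGR001109 and 1.02 for GWHGABGR001110, all past the test. The ratio of GWHGABGR001111 to GWHGABGR001110 was 0.0574 ± 0.00699 in the female-labelled and 0.0754 ± 0.0152 in the male set, with 1 male-labelled library at 0.0578 inside the range of the female set.

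Of the genes with less than 100 FPKM, GWHGABGR001275 stood at 45.8 ± 8.08 against 99.7 ± 4.05 FPKM (SD, n = 3, log2 difference 1.12, limma adjusted p = 0.000132) and GWHGABGR003778 at 15.6 ± 2.53 against 43.3 ± 6.76 FPKM (log2 difference 1.42, limma adjusted p = 0.000101). GWHGABGR003779, named for chemosensory protein 12, stood at 21.7 ± 4.56 against 33.2 ± 4.96 FPKM (log2 difference 0.60, limma adjusted p = 0.0196). It was no longer called with median-of-ratios rescaling (limma adjusted p = 0.144), with quantile normalization (0.131), and without female-labelled replicate 1 (0.0521), female-labelled replicate 2 (0.0551) or male-labelled replicate 2 (0.0643). GWHGABGR001097, named for chemosensory protein 9, lay higher in the female set, at 5.86 ± 1.16 against 2.55 ± 0.772 FPKM (log2 difference -0.96, limma adjusted p = 0.00967). The remaining 2 genes did not pass. GWHGABGR001096 stood at 2.27 ± 2.12 against 2.44 ± 1.41 FPKM, and GWHGABGR001108 at 1.24 ± 1.08 against 1.71 ± 0.987 FPKM on 15 and 18 reads, where a difference of this size was not detectable.

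**Figure D4:**
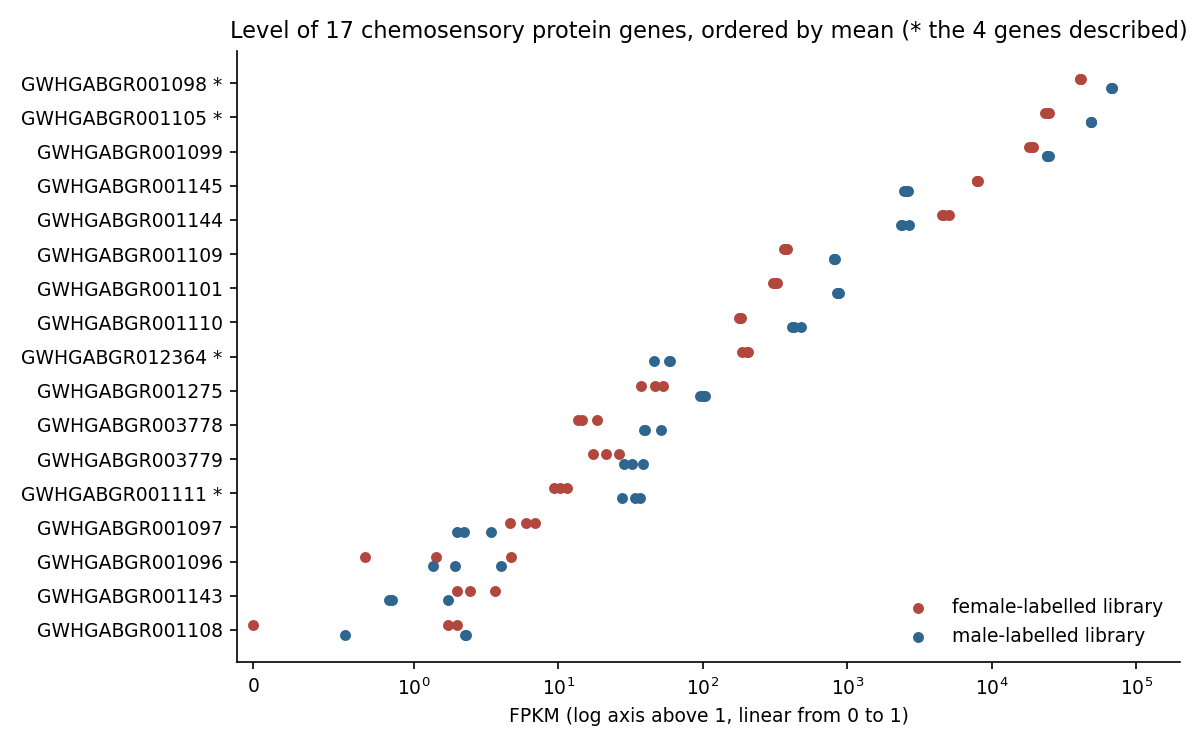
FPKM (horizontal axis, log above 1 and linear from 0 to 1) of the 17 chemosensory protein genes in each female-labelled (red) and male-labelled (blue) library, ordered from the lowest mean at the bottom to the highest at the top. Asterisks mark the 4 genes described, which lie at places 1, 2, 9 and 13 of the order. The red and blue points are apart for 15 of the 17 genes, which include the 4 picked with this contrast known. Of the other 13 genes, the male set lay above for 7 and the female set for 4. Of all genes tested, 37.9% and 12.1% were apart in those directions (50.1% in all).

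The identifiers of 3 of the 4 genes lie close together. Within 15 numbers of GWHGABGR001098, GWHGABGR001105 or GWHGABGR001111 the table lists 39 genes, of which 10 belong to the chemosensory protein list. All 10 were tested, and 7 were called toward the label male and 1 toward the label female. The 7 include GWHGABGR001098, GWHGABGR001105 and GWHGABGR001111 themselves, which were picked with this contrast known, so the count is no evidence about the run. Of the 22 tested genes of this run that are not in the list, 9 were called toward the label male and 4 toward the label female. The widened list would take GWHGABGR001100 and GWHGABGR001104 of these 22, and neither was called. The genes GWHGABGR001143, GWHGABGR001144 and GWHGABGR001145, called toward the label female, come later in the same number series. GWHGABGR012364 has no other list gene within 15 numbers, where 8 of 22 tested neighbours were called toward the label male and 1 toward the label female. Of all genes tested, 27.8% and 9.03% were called in those directions. Near identifiers are a property of the table, and positions in the genome were not used here. One gene inside the first run, GWHGABGR001102, whose best hit is a hypothetical protein of a moth of another family, stood at 19670 ± 428 against 9837 ± 130 FPKM (limma adjusted p = 6.17e-09). It was singled out after its values were seen, and nothing in the annotation ties it to the chemosensory proteins.

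The genes with the pattern most like each of the 4 were sought by the root mean square difference of log2(FPKM + 1), centred on each gene's mean, over the 6 libraries. With only 2 labels, this pattern is mostly the difference between labels, which was known when the 4 were picked. The genes nearest to GWHGABGR001098 had log2 differences of 0.75, 0.73 and 0.70, beside its own 0.72. The search is therefore a description, and shared regulation was not tested. None of the 12 nearest genes found was a chemosensory protein gene. With 10882 candidate genes for each and a family of 17, such an absence says little about the family. Nearest to GWHGABGR001098 were GWHGABGR017977, an uncharacterized protein gene (0.0166), GWHGABGR016678, a dipetalogastin-like serine protease inhibitor gene (0.0184), and GWHGABGR021181, with a myrosinase 1 hit (0.0198). The inhibitor gene was also abundant, at 9633 FPKM in the female set and 15950 in the male set. Nearest to GWHGABGR001105 were GWHGABGR004386, a gene for an elongase of very long chain fatty acids (0.0329), GWHGABGR004979, for delta-1-pyrroline-5-carboxylate synthase (0.0354), and GWHGABGR007652, with a hit to a putative immunolectin of Lonomia obliqua (0.0371).

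Patterns near the rarer pair matched less closely. For GWHGABGR001111 the nearest were the uncharacterized GWHGABGR019360 (0.10) and GWHGABGR010418 (0.104) and the beta-mannosidase gene GWHGABGR015288 (0.108). For GWHGABGR012364 they were the UDP-glucuronosyltransferase 2B15-like gene GWHGABGR013102 (0.0745), the glycine-rich cell wall structural protein gene GWHGABGR008778 (0.0967) and the apolipoprotein D-like gene GWHGABGR008760 (0.123). The UDP-glucuronosyltransferase gene averaged 35.4 FPKM in the female set and 8.67 in the male set, and the apolipoprotein D-like gene 23.7 and 6.94.

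Other soluble carriers of small hydrophobic molecules were counted in the same fit. Of 17 tested odorant-binding proteins, 12 were called toward the label male and 2 toward the label female, with a median log2 difference of 0.39, beside 27.8% and 9.03% of all genes tested and their median of 0.23. After rescaling 7 and 3 were called, with a median of 0.13, beside 14.3% and 17.6% of all genes. Of 11 tested takeout and juvenile hormone-binding proteins, 6 and 1 were called, with a median of 0.48, and after rescaling 4 and 2, with a median of 0.22. The circadian clock-controlled protein-like gene GWHGABGR002941 of that list stood beside GWHGABGR001098 at the top of the male set at 66560 FPKM. Of 3 tested lipocalins 1 was called each way (1 toward the label male and 2 toward the label female after rescaling), and the single NPC2-like gene was not called. Among the 10 genes with the highest mean FPKM, 3 were chemosensory protein genes in each label. These were GWHGABGR001098, GWHGABGR001105 and GWHGABGR001099, of which only GWHGABGR001099 was not among the genes picked with their levels known.

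Chemosensory proteins are not limited to sensilla, and markers of other cells were counted beside them, to be read against the 27.8% and 9.03% of all genes called toward the labels male and female. Of 7 hemocyte genes, 4 were tested and 3 were called toward the label male, with summed levels of 15.6 to 17.99 FPKM in the female set and 27.4 to 30.7 FPKM in the male set. Of 9 fat body genes, 7 were tested, and 3 and 1 were called, with summed levels of 586 to 617 FPKM and 504 to 525 FPKM. Of 36 muscle genes, 19 were tested, and 4 and 1 were called, with summed levels of 267 to 283 FPKM and 307 to 312 FPKM. After rescaling the muscle calls were 2 and 2, and the counts of the hemocyte and fat body lists were as before, beside 14.3% and 17.6% of all genes. Their part in the differences of the chemosensory proteins was not tested.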

How the data were processed

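Antennal mRNA libraries of adult Antheraea pernyi (3 labelled female, 3 labelled male) were made with a stranded kit, per the labels' protocols. The deposited table gives FPKM values per gene and library as the authors made them. The submitters' processing notes name HTSeq, HISAT2, Trimmomatic and R 3.2.0 with no roles, and the genome build is not given in the sources used here.

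Genes with a mean of at least 0.5 FPKM (11590 of 16458) were fitted in R 4.3.3 with the limma package, version 3.58.1. The fit took log2(FPKM + 1) and a trended variance, label as the only term, 2-sided tests and Benjamini-Hochberg adjustment over all genes tested at 0.05. The fold change of low genes is understated on that scale. The step was checked on simulated counts in which few genes were changed and no shift common to all genes was set. That check does not bear on the median log2 difference of 0.23 seen here. Whole reads were recovered within 0.01 read for 16457 of 16458 genes, by a search over totals and lengths from 90 bases, and among genes with over 30 reads 87.9% had a length divisible by 3. Between libraries of a label the chi-square per gene, over genes with at least 20 reads in the pair, lay from 3.08 to 3.99, above read sampling, so each library was counted as 1 sample. A gene whose counts share a factor has reads and length too low by that factor.

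The 4 genes and all lists were chosen with earlier results of these data known. Named genes were the 4, every other gene of the chemosensory protein list, and for each of the 4 the 3 tested genes with a best hit that had the nearest pattern. GWHGABGR001102, GWHGABGR002941 and genes of the widened list were named after their values were seen. Wrong matches by name (microvitellogenins, fibrohexamerin, prophenoloxidase-activating proteinases, cytosolic juvenile hormone-binding protein, receptors) were left out of lists. Alternatives were another pseudocount, other filters, rescaling, quantile normalization, a replicate block, single libraries left out and other lists.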

Additional observations from a re-analysis of the deposited data

How the results depend on the processing

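The log2 differences of the 4 genes kept their direction under all alternatives run, but most of these could not have turned it. The sets of these genes do not overlap, so neither a library left out nor another pseudocount can turn a direction. Other filters and the replicate block leave the differences unchanged. Only rescaling and quantile normalization could have turned them. The log2 differences moved by more than the spread between libraries with median-of-ratios rescaling (0.46 for GWHGABGR001098, 0.75 for GWHGABGR001105, 1.32 for GWHGABGR001111 and -2.11 for GWHGABGR012364) and, except for GWHGABGR012364, with quantile normalization (0.47, 0.76 and 1.32). Without single libraries they ranged from 0.72 to 0.73, from 0.98 to 1.03, from 1.48 to 1.69 and from -1.92 to -1.74 in the same order. Over all genes, calls toward the labels male and female were 1655 and 2036 with the rescaling and 1636 and 1688 with quantile normalization. Taking the family by name alone, without symbols, gave 6 and 2 called of 10 genes, in place of 10 and 5 of 17. Widening the family by the symbol CG6642 and allergen Tha p 1-like genes, an alternative chosen after seeing the data, gave 10 and 6 of 20. On the deposited scale 27.8% and 9.03% of all genes tested were called in those directions. All 3 counts hold genes picked with this contrast known, so nothing is read from them. The family's mean share was 3.82% and 5.77% of recovered reads, in place of 7.26% and 11.1% of FPKM. Without the 10 most abundant genes, which removes 3 family genes higher in the male set from the share, it was 1.33% and 0.722%. The direction between labels thus turned for the family genes left. The difference of GWHGABGR001096, which did not pass, was -0.091 with quantile normalization, -0.19 without female-labelled replicate 2 and -0.12 without male-labelled replicate 2 (-0.19 to 0.69 without single libraries). That of GWHGABGR001108 was -0.15 without female-labelled replicate 2 (-0.15 to 0.71). Apart from the genes removed from the share, the cause of these shifts was not tested.

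Nothing in the labels says that equal replicate numbers pair libraries, and deviations of same-numbered libraries from their label's mean correlated at 0.005, 0.006 and -0.004. With the replicate number as a block, 7 and 3 of the other 13 family genes were called in place of 7 and 4. Of all 11590 genes tested, 2891 and 954 were then called in place of 3227 and 1047. Each replicate number occurs once in each label, so the block cannot change a log2 difference, and that of GWHGABGR001098 stayed at 0.72 by construction. Depth limits the genes of few reads, such as GWHGABGR001108.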
